A study of Mus musculus with 18 samples.

Results

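The 10 genes described here carry iron into cells, store it, release it and send it out. They are Tfrc, Slc11a1 and Slc11a2 (uptake), Fth1, Ftl1 and Ncoa4 (storage and its release), Slc40a1 (export), Hmox1 (release of iron from haem), and Aco1 and Ireb2 (the iron regulatory proteins). They were chosen by function, with earlier results of these data known, so their counts beside those of all genes are descriptions. They were matched by symbol, and all 10 were found among the 22787 mouse genes of the deposited table.

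The study asked what mTORC1, the kinase complex that couples nutrients to growth, does in the differentiation of myeloid cells, and measured RNA in 18 libraries of 7 groups. Granulocyte-monocyte progenitors (GMPs), the marrow cells that give rise to neutrophils and monocytes, came as 4 groups of 3 libraries from mouse bone marrow. Raptor fl/fl GMPs carry floxed alleles of Rptor, which encodes the scaffold subunit of mTORC1, and Raptor KO GMPs are labelled as knockouts of it. Tsc2 fl/fl GMPs carry floxed alleles of Tsc2, a brake on mTORC1, and Tsc2 KO GMPs are labelled as knockouts of that gene. Each GMP library came from 10000 sorted cells that were positive for c-kit and FcγRII/III, negative for Sca-1, CD127 and CD135, and low for CD34 and Ly6C. DR-ER-Hoxb8 cells, an immortalised line of myeloid progenitors held undifferentiated by an oestradiol-dependent Hoxb8, came as 3 groups of 2 libraries. All of these were differentiated for 3 days in medium with SCF and no oestradiol, together with DMSO as the vehicle, with rapamycin, an mTORC1 inhibitor, at 100 nM, or with SL0101-01, an inhibitor of the RSK kinases, at 10 nM. The Tsc2 groups were read from sample titles, because the genotype entry of those samples names Raptor. The Cre driver, the age and the sex of the mice are not given in the sources used here, and nothing in the labels tells whether a replicate is an animal or culture of its own, so the p values measure the spread between these samples, which may be technical. The line is 1 cell line, so its groups do not sample several sources.

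Most cells take up iron as transferrin bound to the transferrin receptor, move it across the endosome with a divalent metal transporter, hold the surplus in ferritin and let it out through ferroportin. The iron regulatory proteins bind hairpins called iron responsive elements when iron is scarce: at the 5′ end of ferritin and ferroportin mRNA they block translation, and in the 3′ untranslated region of Tfrc mRNA they protect the message from decay. Red cell precursors take up iron at a high rate for haem, and macrophages recover it from old red cells with haem oxygenase and return it through ferroportin. The values below are RNA levels and do not measure translation.

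The element is shown here because some transcripts of uptake, storage and export share it in sequence. A search of the untranslated regions of GENCODE M21 transcripts (GRCm38), on the mRNA strand, looked for an unpaired C, 5 bases and the loop CAGTGN, with 5 paired bases on each side of the loop, within a 17-base window. It matched in 4 of the 10 genes: Tfrc, Fth1, Ftl1 and Slc40a1. Over all 19284 genes scanned, 151 (0.783%) held a match, 27 of them (0.140%) in a 5′ untranslated region. In each line the capitals mark the unpaired C and the 6-base loop, and the bases on either side of the loop pair with each other.
Fth1 5′ UTR, chr19:9982732-9982760, plus strand: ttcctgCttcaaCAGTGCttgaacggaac
Ftl1 5′ UTR, chr7:45459779-45459807, minus strand: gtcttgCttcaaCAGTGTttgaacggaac
Slc40a1 5′ UTR, chr1:45925465-45925493, minus strand: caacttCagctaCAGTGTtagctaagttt
Tfrc 3′ UTR, chr16:32631219-32631247, plus strand: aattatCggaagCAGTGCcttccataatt
Tfrc 3′ UTR, chr16:32631598-32631626, plus strand: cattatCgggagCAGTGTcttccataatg
Tfrc 3′ UTR, chr16:32631663-32631691, plus strand: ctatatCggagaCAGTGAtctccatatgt
Tfrc 3′ UTR, chr16:32631710-32631738, plus strand: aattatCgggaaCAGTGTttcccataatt
Fth1 and Ftl1 hold near-identical stems in the 5′ position, Slc40a1 a different stem in the same position, and Tfrc 4 copies in the 3′ position. For the other 6 genes these letters are not in the regions searched, which says nothing about binding or about looser forms of the element.

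Values, called units here, are fragments scaled by a size factor for each library. A GMP library held 2.48 to 3.52 M fragments and a Hoxb8 library 2.31 to 3.30 M. Tsc2 stood at 95.1 ± 10.8 units in Tsc2 KO GMPs, beside 248 ± 18.0 in Tsc2 fl/fl (SD, n = 3 each; limma adjusted p = 1.69e-04). Rptor came to 63.3 ± 5.61 units in Raptor KO GMPs, beside 84.5 ± 5.11 in Raptor fl/fl (SD, n = 3 each), a difference that did not pass the test (limma adjusted p = 0.377), so its RNA level does not by itself bear out the label. In the Tsc2 line, replicate 2 of either genotype held Y-linked transcripts (summed 385 units in fl/fl and 318 in KO), and the other 10 GMP libraries held at most 0.778 units. Replicate 2 of both Tsc2 groups therefore held male cells, unlike replicates 1 and 3, so the spread in these groups is not only technical. All 12 GMP markers were detected in every group. Their sum ran from 37837 to 84384 units in Tsc2 fl/fl and from 8930 to 41581 in Tsc2 KO, against 65839 to 83299 over both Raptor groups, so all 3 Tsc2 KO libraries and Tsc2 fl/fl replicate 2 stand below the Raptor groups, with Tsc2 KO replicates 2 and 3 lowest.

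More of the 10 genes were called in Tsc2 KO than in Raptor KO, and in the cell line both inhibitors left Tfrc higher and Slc11a1, Ftl1 and Hmox1 lower than DMSO. A gene was called when its limma p, adjusted by Benjamini-Hochberg over all genes tested, was under 0.05. In Tsc2 KO against Tsc2 fl/fl, 8 of the 10 were called, all higher, where 5.26% of all genes tested were called higher and 7.12% lower; the same 8 had groups that did not overlap (14.6% of all genes did so in that direction). In Raptor KO against Raptor fl/fl, 2 were called, both lower, where 2.42% of all genes were called lower and 1.53% higher, and 4 had groups that did not overlap, all lower (13.1% of all genes). The difference between the knockout effects was itself called for 6 of the 10, all with the lower value on the Raptor side (6.44% of all genes, and 5.99% on the other). The median log2 fold change of the 10 was 1.17 in Tsc2 KO, beside -0.02 over all genes, and -0.04 in Raptor KO, beside 0.03. Slc11a1 lies above that Tsc2 median, which stays 1.17 when the controls of this gene, all at 0, are set at 3 fragments over the group.

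In Hoxb8 cells 9 of the 10 genes passed the filter on low values. Of these, rapamycin against DMSO called 1 higher (5.4% of all genes) and 4 lower (6.35%). SL0101-01 against DMSO called 1 higher (5.09%) and 3 lower (5.79%). These comparisons share the DMSO libraries, so their results are not independent. Rapamycin against SL0101-01, which does not use DMSO, called 1 of 9, lower with rapamycin (4.44% of all genes lower, 4.43% higher). Without Tsc2 KO replicate 2 the Tsc2 count is 5, without DMSO replicate 2 the rapamycin count is 3 and the SL0101-01 count 1, and without DMSO replicate 1 or SL0101-01 replicate 2 the SL0101-01 count is 2. Limma without its expression trend and robust moderation kept Slc11a1 of the rapamycin calls and 0 of the SL0101-01 calls. With SL0101-01 4 of the 9 still had an unadjusted p under 0.05 there, beside 2342 of all 11804 genes tested.

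**Figure D1:**
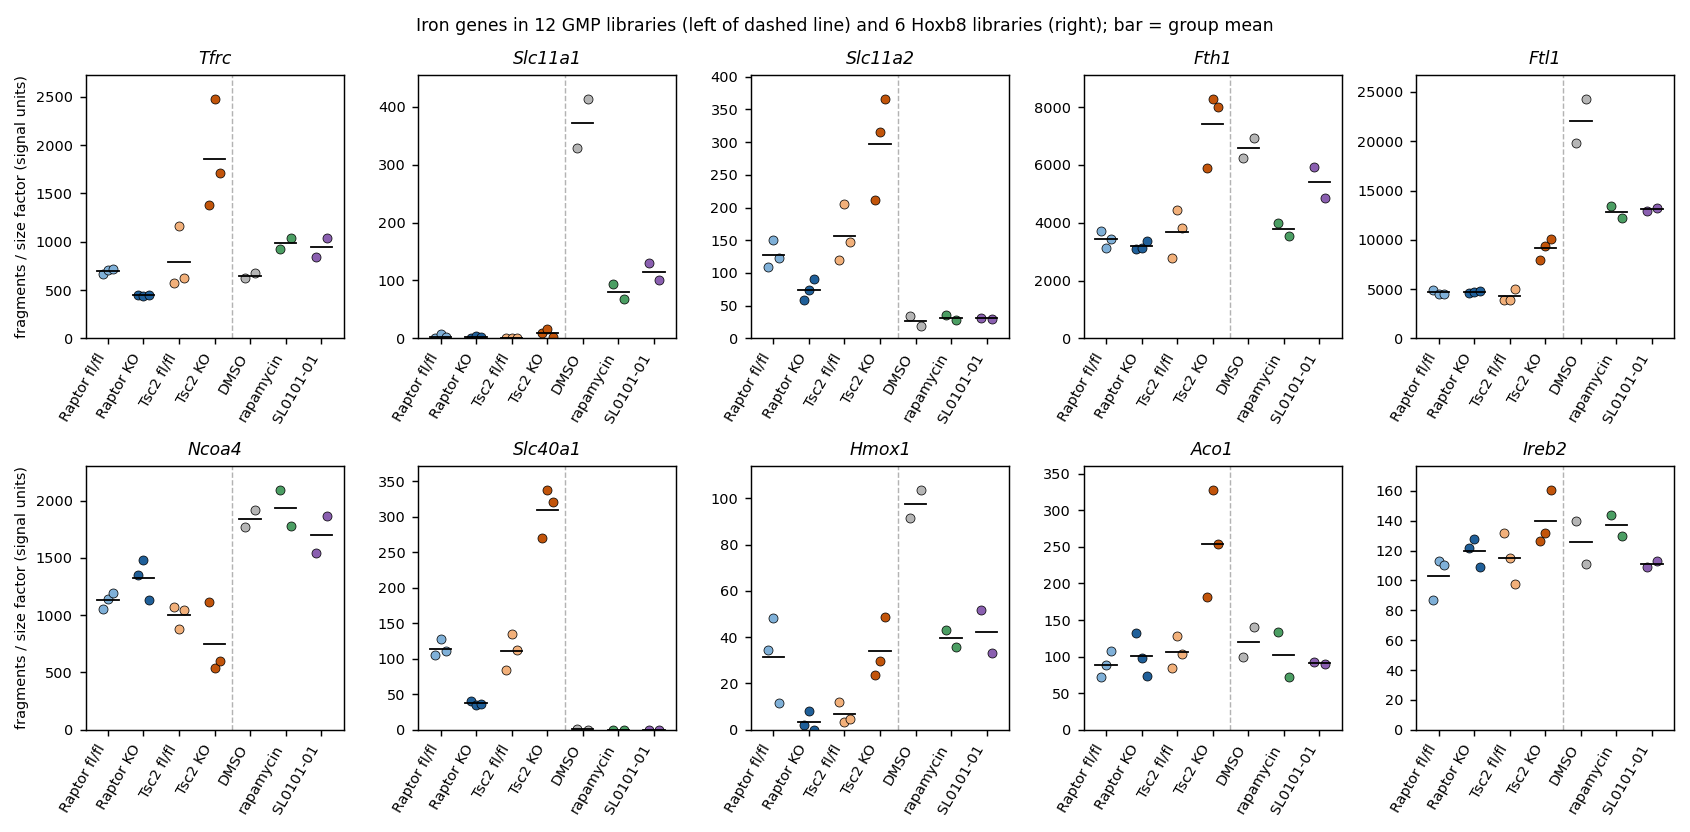
Units per library (points) with the group mean (bar) for each of the 10 genes, 4 GMP groups left and 3 Hoxb8 groups right of the dashed line; each panel has its own axis from 0. The Tsc2 KO points of Ftl1 (7905 to 10097) and Slc40a1 (269.8 to 338) lie above all other GMP libraries, and Slc40a1 is at or near 0 in Hoxb8 cells.

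**Figure D2:**
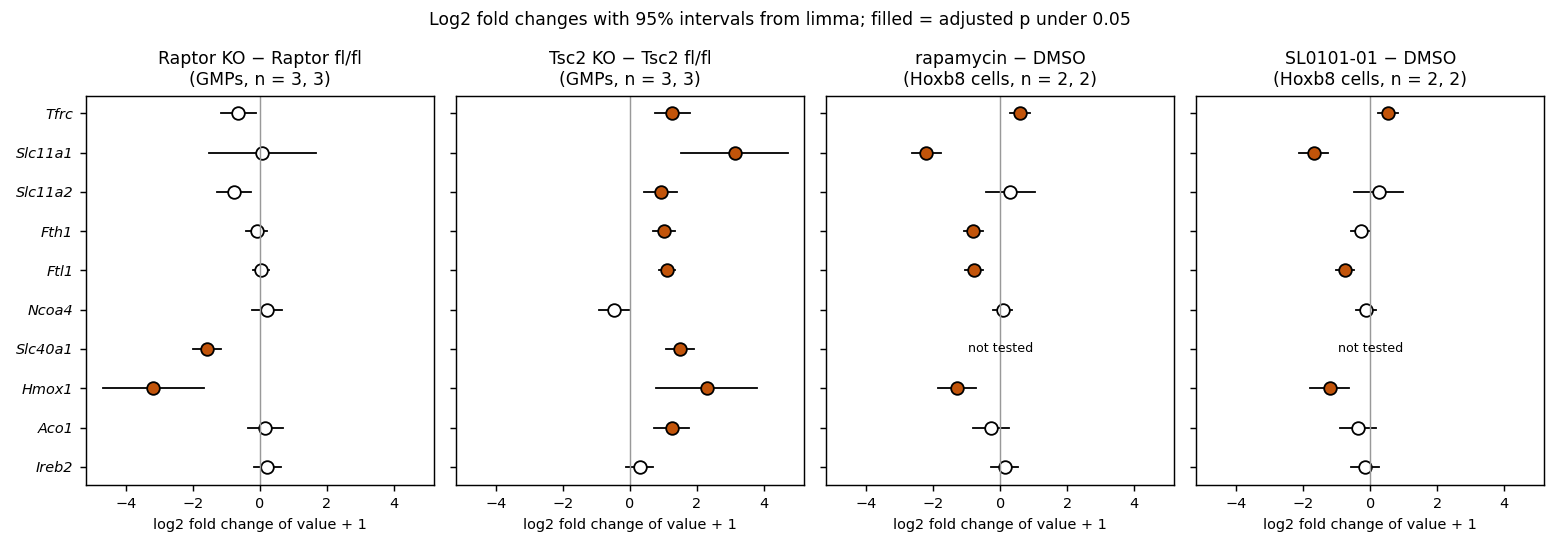
Log2 fold change of value + 1 (x axis) with 95% limma intervals for each gene in each comparison, filled where the adjusted p is under 0.05. In Tsc2 KO 8 genes lie to the right of 0 with filled points, and in Raptor KO Slc40a1 (-1.59) and Hmox1 (-3.19) lie to the left with filled points.

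Per kilobase of transcript, ferritin led in every group. Ftl1 ran from 4419 units per kb in Tsc2 fl/fl GMPs to 22803 in DMSO-treated Hoxb8 cells, and Fth1 followed it in all 7 groups, from 2145 in Raptor KO to 4952 in Tsc2 KO. Ncoa4, the cargo receptor that hands ferritin to autophagosomes for breakdown, came next and Tfrc after it in 5 of the groups. In Tsc2 KO GMPs this order was turned, with Tfrc at 379 and Ncoa4 at 185 units per kb. In DMSO-treated Hoxb8 cells Slc11a1 (160) lay above Tfrc (133), and in the rapamycin and SL0101-01 groups Tfrc (202 and 192) lay above Slc11a1 (34.7 and 49.7). Slc11a1 was the lowest of the 10 in every GMP group and Slc40a1 the lowest in every Hoxb8 group. Aco1, Ireb2 and Slc11a2 shared the lower middle of the order, with neighbours such as Aco1 (26.4) and Slc11a2 (24.6) in Raptor KO closer together than the spread of their libraries. Cell source, sort and culture differ together between GMPs and Hoxb8 cells, so no test was made between them.

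Tfrc encodes transferrin receptor 1, the main route of transferrin-bound iron. It read 1376, 2482 and 1707 units in Tsc2 KO, beside 571, 1164 and 629 in Tsc2 fl/fl. The groups did not overlap, although Tsc2 fl/fl replicate 2 came close to the lowest KO library. Tfrc rose by a log2 fold change of 1.27 (SE 0.24, limma adjusted p = 0.00593), or 2.35-fold by the means. Fitted on the Tsc2 groups alone, the same change had an adjusted p of 0.0695 in limma. It read 449, 441 and 448 units in Raptor KO, beside 670, 711 and 723 in Raptor fl/fl. All Raptor KO libraries lay below all of their controls, with a spread of only 4.64 units (SD), but the log2 fold change of -0.65 (SE 0.24) did not pass in the fit of all GMP groups (limma adjusted p = 0.154). It passed when only the Raptor groups were fitted (3.7e-04). It did not pass in the other 9 of 10 settings, or with any 1 Raptor library left out (adjusted p 0.273 to 0.332 in limma). The difference between both knockout effects was -1.92 on the log2 scale (SE 0.34, limma adjusted p = 0.00501).

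In Hoxb8 cells Tfrc read 627 and 675 units with DMSO, 928 and 1043 with rapamycin, and 839 and 1043 with SL0101-01. Both inhibitor groups lay above both DMSO libraries. Rapamycin gave a log2 fold change of 0.60 (SE 0.15, limma adjusted p = 0.00896). SL0101-01 gave 0.52 (SE 0.15, limma adjusted p = 0.0244). Between the inhibitors the difference was 0.07 (95% interval -0.23 to 0.38), which does not show that they act alike. The rapamycin call was lost without DMSO replicate 1 (adjusted p = 0.147), DMSO replicate 2 (0.0736) or rapamycin replicate 2 (0.0543), and the SL0101-01 call without DMSO replicate 1 (0.224), DMSO replicate 2 (0.140) or SL0101-01 replicate 2 (0.237), all in limma.

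Slc11a2 encodes DMT1, which moves iron out of the endosome after transferrin has delivered it. It read 211, 315 and 367 units in Tsc2 KO, beside 120, 205 and 147 in Tsc2 fl/fl. The groups met closely, at 205 and 211 units, without overlapping. Slc11a2 rose by a log2 fold change of 0.92 (SE 0.24, limma adjusted p = 0.0167). It read 59.4, 73.6 and 90.2 units in Raptor KO, beside 109, 151 and 123 in Raptor fl/fl. Every Raptor KO library was lower than every control, and the log2 fold change of -0.78 (SE 0.24) missed the threshold (limma adjusted p = 0.0702). It passed in a fit of the Raptor groups alone (0.0231), after quantile normalization (0.0498) and with a replicate block (0.0221). Between the knockout effects Slc11a2 differed by -1.69 (SE 0.33, limma adjusted p = 0.00439). The rise in Tsc2 KO lost its call when fl/fl replicate 1 (adjusted p = 0.0951) or 3 (0.0623) or KO replicate 2 (0.0764) or 3 (0.110) was left out, in a fit of the Tsc2 groups alone (0.0697) and in limma without the expression trend (0.0720). In Hoxb8 cells Slc11a2 was low, between 19.1 and 35.7 units over all 6 libraries, and none of the comparisons called it.

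Slc11a1 encodes NRAMP1, the metal transporter of phagosomes in neutrophils and macrophages. It was close to the limit of detection in GMPs: 0.707, 4.46 and 1.88 units in Raptor KO, beside 0, 7.78 and 1.62 in its controls, and 8.62, 16.5 and 2.96 in Tsc2 KO. In Tsc2 fl/fl it was 0 in all 3 libraries, where a count of 0 allows up to 0.883 units (3 fragments over the group). Over the 3 Tsc2 KO libraries it had 41 fragments, or 9.51 units pooled, which is 10.8-fold that limit. Counting error only puts this pooled value between 6.82 and 12.9 units (95% interval). Replicate 2 held 24 of the 41 fragments, and without it the other 17 give 6.74-fold that limit. The call (limma adjusted p = 0.0121) was lost without Tsc2 KO replicate 2 (0.0804), and without both libraries with Y-linked transcripts (0.0853). The difference between the knockout effects missed the threshold (limma adjusted p = 0.0703); it passed without Raptor fl/fl replicate 1 (0.0340).

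The same gene was abundant in Hoxb8 cells, where it gave the largest fall of the 9 genes tested. It read 329 and 414 units with DMSO, 93.5 and 67.2 with rapamycin, and 130 and 100.02 with SL0101-01. The DMSO libraries lay well above all others. Rapamycin gave a log2 fold change of -2.20 (SE 0.21, limma adjusted p = 2.29e-07), 4.62-fold lower by the means. With SL0101-01 it was -1.68 (SE 0.21, limma adjusted p = 1.5e-05), 3.23-fold lower. Rapamycin lay below SL0101-01 by -0.52 (95% interval -0.95 to -0.09), which missed the threshold after adjustment (limma adjusted p = 0.124) and passed without rapamycin replicate 1 (0.0419). The sum of mature neutrophil markers was also lower with either inhibitor: 115135 to 159789 units with DMSO, 62922 to 96777 with rapamycin and 54123 to 81513 with SL0101-01, with 10 of 10 markers detected in each group. Limma called 3 of the 10 lower with rapamycin (6.35% of all genes) and 7 with SL0101-01 (5.79%). Between the inhibitors 5 of the 10 were higher with rapamycin (4.43%), where the Slc11a1 libraries were lower. GMP markers moved the other way, from 14816 to 16218 units with DMSO to 61572 to 62422 with rapamycin and 27864 to 35710 with SL0101-01. In bulk RNA, fewer cells of a type and less RNA per cell cannot be told apart, and the part of these shifts in the result was not tested.

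Fth1 and Ftl1 encode the heavy chain of ferritin, which oxidises iron, and the light chain, which helps the core form. Both are read with a caution: mouse processed copies exist (Fth-ps2, Fth-ps3, Ftl2-ps, Ftl1-ps1 and Ftl1-ps2, with no rows of their own in the table), and reads shared with them could be split. Both chains rose in Tsc2 KO. Fth1 read 5898, 8297 and 8001 units in Tsc2 KO, beside 2793, 4440 and 3818 in Tsc2 fl/fl. Ftl1 read 7905, 9423 and 10097 units in Tsc2 KO, beside 3940, 3866 and 5026 in Tsc2 fl/fl. For both chains, every KO library exceeded every control. Fth1 rose by a log2 fold change of 1.02 (SE 0.15, limma adjusted p = 6.42e-04). Ftl1 rose by 1.10 (SE 0.11, limma adjusted p = 1.08e-05), 2.14-fold by the means.

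In Raptor KO neither chain passed the test. Fth1 read 3099, 3132 and 3383 units in Raptor KO, beside 3716, 3132 and 3448 in Raptor fl/fl, with overlapping groups and a log2 fold change of -0.10 (95% interval -0.42 to 0.22). Ftl1 read 4649, 4747 and 4816 units in Raptor KO, beside 4944, 4521 and 4523 in Raptor fl/fl, at 0.02 (95% interval -0.21 to 0.25; -0.01 after quantile normalization). Between the knockout effects Fth1 differed by -1.11 (SE 0.21, limma adjusted p = 0.00448). Ftl1 differed by -1.07 (SE 0.16, limma adjusted p = 6.25e-04).

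In Hoxb8 cells Ftl1 was called lower with both inhibitors and Fth1 with rapamycin. Ftl1 read 19809 and 24338 units with DMSO, 13436 and 12258 with rapamycin, and 12920 and 13280 with SL0101-01. Both inhibitor groups lay below DMSO and overlapped each other. Its log2 fold change was -0.77 with rapamycin (SE 0.13, limma adjusted p = 2.96e-04) and -0.75 with SL0101-01 (SE 0.13, limma adjusted p = 6.42e-04; 0.0591 without DMSO replicate 2; -0.37 and 0.0358 after quantile normalization), with a difference between the inhibitors of -0.03 (95% interval -0.30 to 0.24). Fth1 read 6229 and 6942 units with DMSO, 3996 and 3543 with rapamycin, and 5944 and 4856 with SL0101-01. Here the rapamycin libraries were the lowest and the SL0101-01 libraries lay between. The fall passed with rapamycin (log2 fold change -0.81, SE 0.14, limma adjusted p = 3.37e-04) and not with SL0101-01 (-0.29, SE 0.14, limma adjusted p = 0.197; -0.46 and 0.0289 after quantile normalization). The difference between the chains was not tested. Fth1 was lower with rapamycin than with SL0101-01 by -0.51 (SE 0.14, limma adjusted p = 0.0228), a call lost without rapamycin replicate 2 (0.0989) or SL0101-01 replicate 1 (0.336), and in a fit of those groups alone (0.0619). The ratio of Ftl1 to Fth1 units, which is not corrected for transcript length, was 1.20 to 1.48 as a group mean in GMPs. In Hoxb8 cells it was 3.34 with DMSO, 3.41 with rapamycin and 2.45 with SL0101-01.

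Ncoa4 did not follow ferritin. It read 1113, 541 and 600.0 units in Tsc2 KO, beside 1072, 877 and 1049 in Tsc2 fl/fl. Tsc2 KO replicate 1 lay above all controls and the other 2 KO libraries below them. The log2 fold change of -0.48 (SE 0.21) did not pass (limma adjusted p = 0.149), and without that replicate it was -0.80 and passed (1.91e-04). The difference between the knockout effects, 0.70, changed its call in the same way, from an adjusted p of 0.137 in limma to 4.56e-04 without that replicate. Raptor KO (1349, 1485 and 1132 units) overlapped Raptor fl/fl (1053, 1140 and 1194), and the Hoxb8 groups overlapped between 1540 and 2093 units. Within a library the ratio of Ncoa4 to Fth1 units was 0.285 ± 0.0935 in Tsc2 fl/fl and 0.110 ± 0.0686 in Tsc2 KO (SD, n = 3 each), with the highest KO library (0.189) below the lowest control (0.198). In Hoxb8 cells this ratio was 0.280 ± 0.00561 with DMSO and 0.513 ± 0.0151 with rapamycin (SD, n = 2 each).

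**Figure D3:**
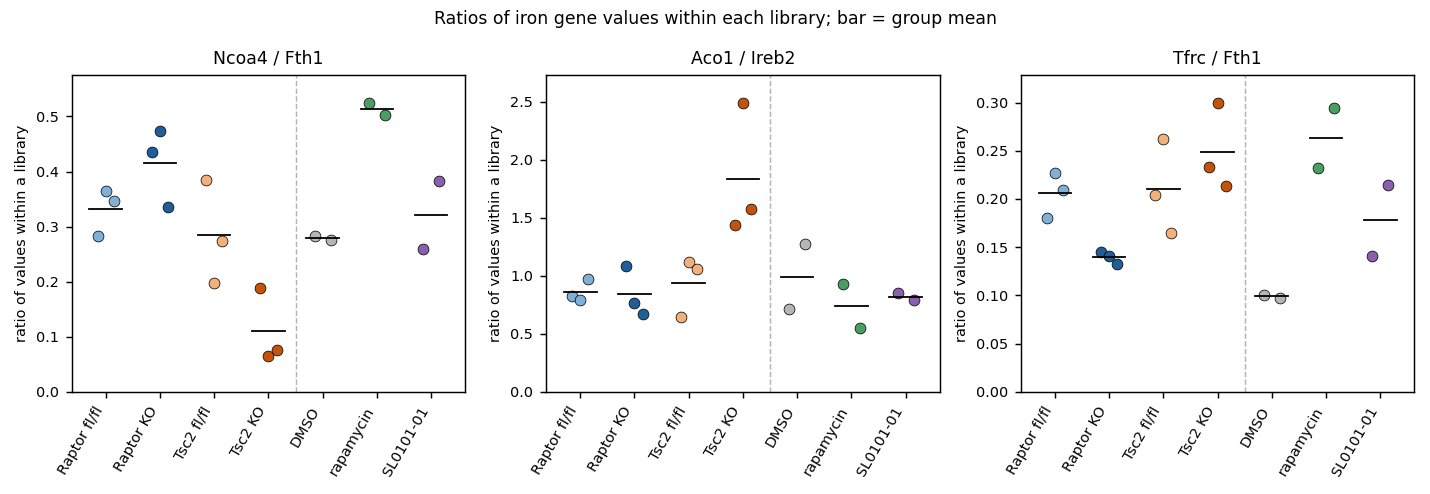
Ratios of units within each library (points) with the group mean (bar), not corrected for transcript length, GMP groups left and Hoxb8 groups right of the dashed line. The Ncoa4 to Fth1 ratio is lowest in Tsc2 KO (mean 0.110) and highest with rapamycin (0.513), and the Aco1 to Ireb2 ratio is highest in Tsc2 KO (1.83).

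Slc40a1, which encodes ferroportin, the only known iron exporter of mammalian cells, moved in opposite directions in the knockouts. It read 40.3, 34.9 and 36.6 units in Raptor KO, beside 105, 128 and 110.4 in Raptor fl/fl. All 3 KO libraries lay far below their controls. Slc40a1 changed by a log2 fold change of -1.59 (SE 0.20, limma adjusted p = 2.97e-04), 3.06-fold lower by the means. It read 269.8, 338 and 320.0 units in Tsc2 KO, beside 84.1, 135 and 113 in Tsc2 fl/fl. There all KO libraries lay above all controls. Its log2 fold change there was 1.50 (SE 0.20, limma adjusted p = 1.92e-04), 2.80-fold higher by the means. Both control groups had near-equal levels, 114 ± 12.0 and 110 ± 25.3 units (SD, n = 3 each), and the difference between the knockout effects was -3.08 (SE 0.28, limma adjusted p = 1.03e-05). Each single-knockout call held when any 1 library of the groups compared was left out. The call of the difference held when any 1 GMP library was left out.

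The ratio of Tfrc to Slc40a1 units had a mean of 12.0 (11.1 to 12.6) in Raptor KO, beside 6.18 (5.57 to 6.55) in Raptor fl/fl, with no overlap. In Tsc2 KO, where both genes rose, it was 5.93 (5.10 to 7.35), beside 7.01 (5.57 to 8.65) in Tsc2 fl/fl. No test was run on these ratios. In Hoxb8 cells Slc40a1 was not tested: DMSO replicate 1 held 1 fragment and the other 5 libraries none, which with counting error only allows up to 1.51 units with rapamycin and 1.22 with SL0101-01 (3 fragments over the group).

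Hmox1 encodes haem oxygenase 1, which breaks haem down and frees its iron. It was low and scattered in GMPs. It read 2.12, 8.18 and 0 units in Raptor KO, beside 34.6, 48.3 and 11.4 in Raptor fl/fl. The groups did not overlap, and they rest on 14 fragments in Raptor KO and 124 in the controls. Hmox1 changed by a log2 fold change of -3.19 (SE 0.71, limma adjusted p = 0.0197). It read 23.9, 29.6 and 48.9 units in Tsc2 KO, beside 12.1, 3.38 and 4.70 in Tsc2 fl/fl. Again the groups did not overlap, on 145 fragments in Tsc2 KO and 23 in the controls. The log2 fold change was 2.28 (SE 0.71, limma adjusted p = 0.0440). Between the knockout effects Hmox1 differed by -5.47 (SE 1.01, limma adjusted p = 0.00326), and it kept its call when any 1 library was left out. The control groups differed from each other, 31.4 ± 18.7 units in Raptor fl/fl against 6.74 ± 4.72 in Tsc2 fl/fl (SD, n = 3 each), which was not tested.

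Both single-knockout calls of Hmox1 depended on single libraries. In limma the call in Raptor KO did not survive leaving out fl/fl replicate 1 (adjusted p = 0.0905) or 2 (0.0858) or KO replicate 1 (0.0516) or 3 (0.0969), a pseudocount of 0.1 (0.0705), or a fit with no expression trend (0.0786). The call in Tsc2 KO did not survive leaving out fl/fl replicate 2 (0.103) or 3 (0.132), KO replicate 2 (0.109) or 3 (0.176) or both libraries with Y-linked transcripts (0.165), a pseudocount of 0.1 (0.218), no filter on low values (0.0612) or no expression trend (0.107). In Hoxb8 cells Hmox1 read 91.7 and 104 units with DMSO, 43.1 and 35.8 with rapamycin, and 51.6 and 33.3 with SL0101-01. All inhibitor libraries lay below both DMSO libraries. The log2 fold change was -1.29 with rapamycin (SE 0.28, limma adjusted p = 0.00308; 0.0800 without DMSO replicate 2). With SL0101-01 it was -1.21 (SE 0.28, limma adjusted p = 0.00645), lost without DMSO replicate 1 (0.0628), DMSO replicate 2 (0.126) or SL0101-01 replicate 2 (0.0918). Between the inhibitors Hmox1 differed by -0.08 (95% interval -0.66 to 0.50).

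The genes of the iron regulatory proteins parted in Tsc2 KO. Aco1 encodes IRP1, which is an aconitase when it holds an iron-sulfur cluster and binds RNA when it does not, and Ireb2 encodes IRP2, which is degraded when iron is plentiful. Aco1 read 182, 328 and 253 units in Tsc2 KO, beside 85.0, 129 and 103 in Tsc2 fl/fl. The groups did not overlap. Aco1 rose by a log2 fold change of 1.24 (SE 0.25, limma adjusted p = 0.00404). Ireb2 read 127, 132 and 161 units in Tsc2 KO, beside 132, 115 and 97.8 in Tsc2 fl/fl, with overlap and a log2 fold change of 0.28 (95% interval -0.11 to 0.68; limma adjusted p = 0.365). The ratio of Aco1 to Ireb2 units was 0.940 ± 0.257 in Tsc2 fl/fl and 1.83 ± 0.570 in Tsc2 KO (SD, n = 3 each), and its ranges did not overlap.

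Raptor KO overlapped its controls in both genes, with Aco1 at 132, 98.1 and 73.3 units against 71.4, 88.7 and 107 in the controls, and Ireb2 at 122, 128 and 109 against 86.6, 113 and 110.4. The difference between the knockout effects for Aco1, -1.08 (SE 0.36), lay at the threshold (limma adjusted p = 0.0524); it passed without Tsc2 KO replicate 1 (0.00956), Raptor KO replicate 1 (0.0319) or Tsc2 fl/fl replicate 2 (0.0291). In Hoxb8 cells neither gene was called in any comparison. Ireb2 was the steadiest of the 10, between 86.6 and 161 units over all 18 libraries.

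Slc40a1 and Hmox1 were called lower in Raptor KO and higher in Tsc2 KO. Fth1, Ftl1, Slc11a1, Ncoa4, Aco1 and Ireb2 overlapped their controls in Raptor KO. Summed erythroid markers in GMPs went in the directions of Slc40a1 and Hmox1. The sum of 17 markers was 2264 to 2899 units in Raptor KO, beside 4723 to 5157 in its controls, and 13930 to 28157 in Tsc2 KO, beside 3563 to 12543 in its controls, with all 17 detected in each group. Car1 and Car2, carbonic anhydrases of red cell precursors, made up 57.4% to 73.8% of the sum in the 12 libraries. Without them the other 15 summed to 875 to 973 units in Raptor KO, beside 1872 to 2099, and to 3670 to 7794 in Tsc2 KO, beside 1255 to 4519, where the ranges overlap. Of the 17, limma called 5 lower in Raptor KO (2.42% of all genes), among them Hbb-b1, Hbb-b2, Alas2 and Slc4a1. In Tsc2 KO 7 were called higher (5.26%): Car1, Car2, Epor, Ermap, Gata1, Rhag and Slc4a1. No globin was among them, and Hbb-b1 read 33.1, 139 and 120.0 units in Tsc2 KO, beside 54.5, 60.8 and 122 in Tsc2 fl/fl. The difference between the effects was called for 12, all lower on the Raptor side (6.44%).

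Macrophage markers gave a different picture. Their sum was 386 to 998 units in Raptor KO, beside 180 to 292 in its controls, and 518 to 779 in Tsc2 KO, beside 38.9 to 114 in its controls. Gpnmb, a glycoprotein of macrophages, alone held 164 to 580 of these units in Raptor KO and 259 to 535 in Tsc2 KO, and at most 4.06 in any control. Without it the other 15 summed to 221 to 418 units in Raptor KO, overlapping the 176 to 290 of its controls, and to 237 to 353 in Tsc2 KO, above the 37.2 to 114 of its controls. Of 14 tested, limma called Gpnmb higher and Cd5l lower in Raptor KO (1.53% and 2.42% of all genes). In Tsc2 KO it called Gpnmb, C1qb, C1qc, Mertk, Mrc1 and Trem2 higher, 6 in all (5.26%). The difference between the effects was called for 4 of the 14, all lower on the Raptor side (6.44%). Of 16 in the table, Mertk and Marco were at 0 in Raptor fl/fl, Timd4 and Cd5l in Raptor KO, Mertk, Timd4 and Marco in Tsc2 fl/fl, and Marco in Tsc2 KO.

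The sums of B lymphoid and of megakaryocyte markers were lower in both knockouts. The B lymphoid sum was 143 to 185 units in Raptor KO, beside 840 to 1220, and 21.5 to 76.2 in Tsc2 KO, beside 339 to 578, with 7 of 10 called lower in each (2.42% and 7.12% of all genes). For megakaryocyte markers it was 431 to 475 units in Raptor KO, beside 1056 to 1294, and 162 to 182 in Tsc2 KO, beside 386 to 781, with 3 and 5 of 7 called lower. The part of these cell types in the results on the 10 genes was not tested.

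In the Hoxb8 cells the erythroid sum was 40.7 to 86.6 units, and Hba-a1, Hba-a2, Hbb-b1, Hbb-b2, Hbb-bs and Aqp1 were at 0 in all 3 groups. Macrophage sums there were 923 to 1070 units with DMSO, 605 to 753 with rapamycin and 393 to 443 with SL0101-01, with C1qa, Spic, Timd4, Axl, Marco, Cd5l and Mrc1 at 0 in all 3.

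**Figure D4:**
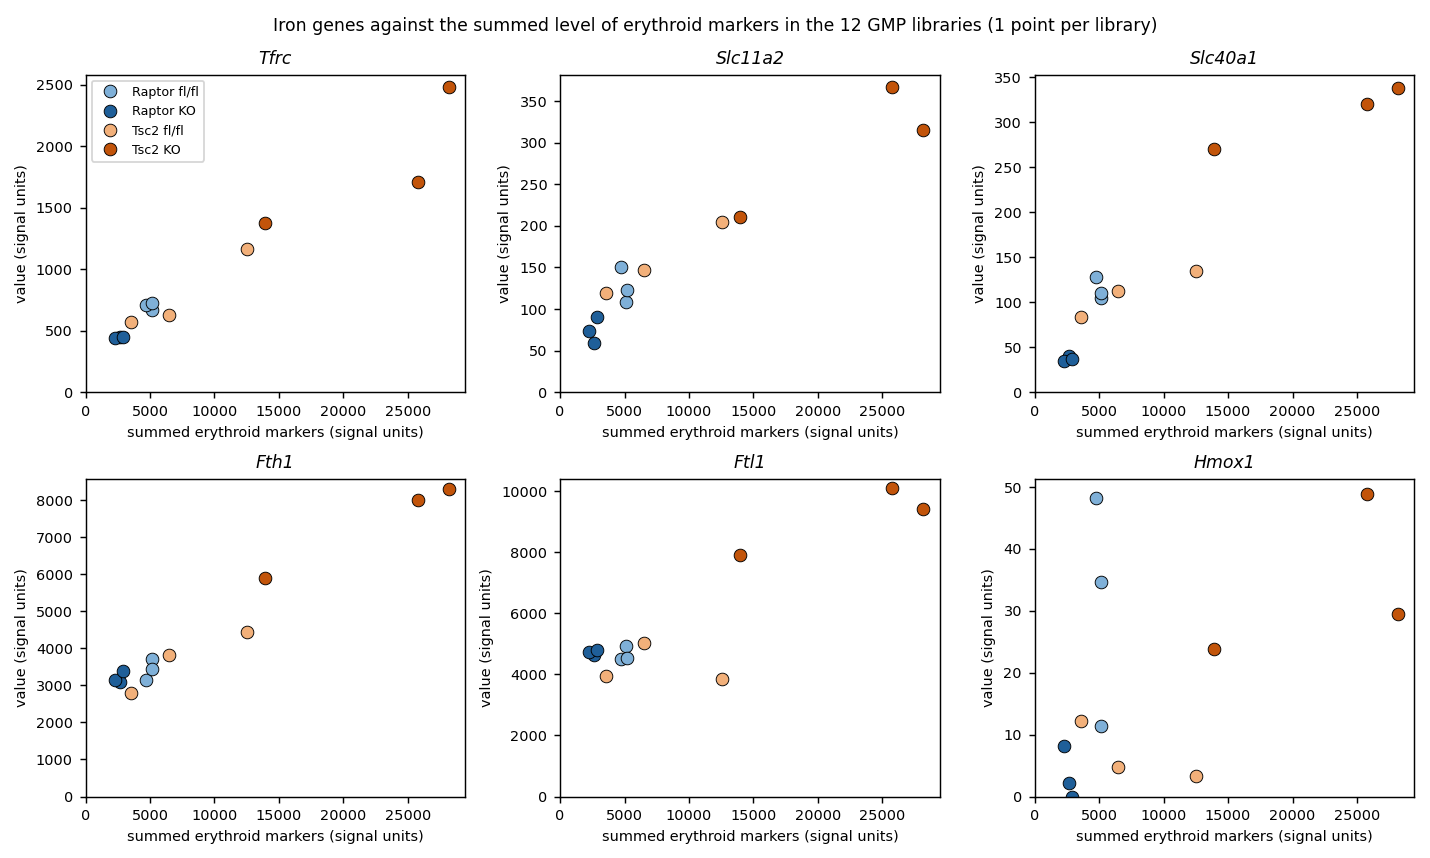
Units of iron genes (y axis) against the summed units of 17 erythroid markers (x axis) in the 12 GMP libraries, 1 point per library, coloured by group. The Tsc2 KO libraries have the highest sums (13930 to 28157), and Tsc2 fl/fl replicate 2 (12543) has the highest sum of the other 9.

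Around the 10 genes, a list of 90 other iron genes held 88 in the table. In Tsc2 KO 14 of 75 tested were called higher (5.26% of all genes) and 2 lower (7.12%), with a median log2 fold change of 0.23. In Raptor KO 1 was called higher (1.53%) and 2 lower (2.42%), near the shares of all genes, with a median of -0.05. Tmem14c, a mitochondrial porphyrin importer of haem synthesis, was called in the same directions as Slc40a1: from 785 to 392 units in Raptor KO (limma adjusted p = 0.00444) and from 771 to 1603 in Tsc2 KO (limma adjusted p = 0.00140). Of 3 other haem breakdown genes 2 were called higher in Tsc2 KO, and of 6 export and haem transport genes 2 (5.26% of all genes). Blvrb and Blvra, which encode biliverdin reductases, went from 595 to 2032 and from 142 to 225 units (limma adjusted p = 0.00951 and 0.0157). Slc48a1, a haem transporter of the lysosome, went from 410 to 631 units, and Abcg2, an exporter that also carries porphyrins, from 120 to 221 (limma adjusted p = 0.00418 and 0.0231).

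Of 10 other uptake genes tested, 1 was called higher in Tsc2 KO, a count too small to set against the share of all genes (5.26%). It was Slc39a8, a carrier of zinc, manganese and iron, which went from 65.7 to 174 units (limma adjusted p = 0.00314). Of the 31 mitochondrial iron and iron-sulfur cluster genes, 7 were called higher (5.26% of all genes) and 1 lower (7.12%). The higher ones include Isca1 (315 to 561 units) and Lyrm4 (267 to 493), which act in the assembly of the clusters. For both of these genes the groups overlapped (limma adjusted p = 0.0119 and 0.0461). The lower one was Slc25a37, or mitoferrin 1, the mitochondrial iron importer of red cell precursors, which fell from 246 to 142 units (limma adjusted p = 0.00779). Among NRF2 targets 1 of 9 was higher, Nqo1 (21.7 to 65.1 units), and 1 lower, Gsr (482 to 306), counts too small to set against those shares. From the list of regulators, Nfe2l2, which encodes NRF2 itself, went from 197 to 412 units (limma adjusted p = 0.00404). Zfp36, whose product tristetraprolin destabilises mRNAs, was the 1 gene called higher in Raptor KO (156 to 269 units, limma adjusted p = 0.0355).

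In Hoxb8 cells 69 of the other iron genes were tested. Rapamycin called 6 higher (5.4% of all genes) and 10 lower (6.35%), and SL0101-01 called 5 higher (5.09%) and 6 lower (5.79%), against the same DMSO libraries. With rapamycin Blvrb went from 166 to 77.2 units and Blvra from 236 to 116 (limma adjusted p = 7.77e-04 and 0.00136). With SL0101-01 none of the 3 haem breakdown genes was called (median log2 fold change -0.51, beside -0.02 over all genes). Lrp1, a receptor that takes up haem bound to haemopexin, went from 135 units with DMSO to 35.4 with rapamycin and 52.8 with SL0101-01 (limma adjusted p = 7.44e-05 and 0.00361). Slc25a37 rose from 324 to 509.6 units with rapamycin (limma adjusted p = 0.00672). Lcn2, a siderophore-binding protein of neutrophil granules, was lower with SL0101-01 (18647 to 9096 units, limma adjusted p = 1.21e-04), and was higher with rapamycin than with SL0101-01 (13320 units, limma adjusted p = 0.0246).

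Over the 12 GMP libraries, the genes with the most similar pattern were found by Pearson's r of log2(value + 1) among 9944 genes. These are descriptions of libraries that share groups, sort and normalization. Slc40a1 was closest to Tmem14c (r = 0.984), Lpcat3 (0.982) and Shkbp1 (0.980). Tfrc was closest to Eps15 (r = 0.990), Lgals9 (0.987) and Fen1 (0.983), and Slc11a2 to Ampd3, Spire1 and Sptb (0.981 to 0.979). Ftl1 lay nearest to Atp6v1e1 (r = 0.966), Tpp1 (0.960) and Pld3 (0.950), while Fth1 lay nearest to Hars, Sphk1 and Cir1 (0.983 to 0.976). Ncoa4 was closest to Lcp1, Cd53 and Akr1e1 (0.973 to 0.972) and Aco1 to Mier1, Eif1 and Haus6 (0.967 to 0.954). Hmox1 (Chp1, 0.912), Ireb2 (Mxi1, 0.887) and Slc11a1 (Snapc3, 0.851) had looser nearest genes. Among the 10 themselves, r was highest for Slc11a2 with Slc40a1 (0.945), Tfrc with Slc11a2 (0.940) and Tfrc with Slc40a1 (0.937), and ferritin's chains came to 0.915. It was lowest for Ncoa4 with Slc11a2 (-0.881), Tfrc (-0.874) and Fth1 (-0.864).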

How the data were processed

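RNA was sequenced from 18 libraries with the SmartSeq2 low-input method, per the labels. The tools, per the submitters' processing notes, included Cuffnorm, Cufflinks 2.2.1, TopHat2 2.0.10 and BWA; the sources used here give neither their order nor the genome build. Each deposited value is a signal, made by the authors from fragments counted on a gene and scaled to the library by a size factor. In every library 98.9% to 99.0% of values above 0 were multiples of a smallest step within 0.01 of a whole number, and dividing by that step gave the fragments. With 2.31 to 3.52 M fragments per library, a gene at 10 units rests on few fragments, and floors and intervals cover counting error only. The protocol named in the labels does not mark strand, and Slc11a2 overlaps Gm5475 (at most 0.846 units) on the other strand.

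GMP (12) and Hoxb8 (6) libraries were fitted separately with limma 3.58.1 in R 4.3.3, on log2(value + 1), with an expression trend and robust moderation. A gene was tested at a value of 1 or more in at least 3 GMP or 2 Hoxb8 libraries (13237 and 11804 genes). Fold changes are on that log2 scale and understate the change of low genes. Benjamini-Hochberg adjustment ran over all genes tested in each of 6 comparisons, two-sided, at 0.05. The test was checked on simulated data. Levels per kb use the GENCODE M21 principal transcript, and iron responsive elements were searched in M21 untranslated regions with Python 3.11.15.

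All 10 genes are named whatever their test. Of the other iron genes, only those called, at most 4 per list and comparison by size, may be named, and the 3 most similar genes by r among genes with a mean of at least 10 units. The genes and lists were chosen with earlier results of these data known. Alternatives were the pseudocount, the filter, the scaling, the moderation, weights, a replicate block, fits of only the groups compared and leaving out each library. Both alternatives on Y-linked transcripts were chosen after seeing the data.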

Additional observations from a re-analysis of the deposited data

Results flagged for a closer look

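For 6 of the 10 genes the Raptor KO effect differed from the Tsc2 KO effect by the interaction test in limma, on the log2 scale. The differences, Raptor effect minus Tsc2 effect, were -1.92 for Tfrc, -1.69 for Slc11a2, -1.11 for Fth1, -1.07 for Ftl1, -3.08 for Slc40a1 and -5.47 for Hmox1. For Slc40a1 and Hmox1 the effects of both knockouts passed the test, with opposite signs. For Tfrc, Slc11a2, Fth1 and Ftl1 the Tsc2 effect passed and the Raptor effect did not. Erythroid markers differed in the same direction, with 12 of 17 called, as did 4 of 14 macrophage and 3 of 10 mature neutrophil markers. In the other direction 2 of 7 megakaryocyte and 1 of 12 GMP markers were called. Of 10 B lymphoid markers 0 were called. Of all genes tested, 6.44% were called lower on the Raptor side and 5.99% higher. The part of these cell types in the differences of the 6 genes was not tested.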

How the results depend on the processing

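The 57 single-gene fold changes were recomputed to give 945 values, of which 856 kept direction and call, 47 lost the call, 17 gained it and 25 changed sign. Of 70 group means, 66 moved by less than 1 SD under a common total per library, and 6 of the 10 genes were highest in Tsc2 KO under both scalings. Without the expression trend and robust moderation the members called fell from 2 to 1 (Raptor), 8 to 6 (Tsc2) and 6 to 5 (difference of effects). In Hoxb8 cells they fell from 5 to 1 (rapamycin), 4 to 0 (SL0101-01) and 1 to 0 (between inhibitors). With SL0101-01 4 of 9 members had an unadjusted p under 0.05, beside 2342 of 11804 genes. Between inhibitors 1 of 9 did, beside 2229 of 11804. Genes called over the whole table fell from 522 to 215 (Raptor), 1638 to 929 (Tsc2) and 1646 to 714 (difference of effects). They also fell from 1386 to 188 (rapamycin), 1284 to 97 (SL0101-01) and 1047 to 14 (between inhibitors). In that fit Fth1 in the difference of effects had an adjusted p of 0.0531. A pseudocount of 0.1 left 1 member called in Raptor KO. Fits of only the groups compared called 4 members and 1249 genes for Raptor, and 6 members and 471 genes for Tsc2. Between inhibitors they called 0 members and 542 genes, with 2 members and 2473 genes at an unadjusted p under 0.05. Leaving out 1 library gave 1 to 2 members and 146 to 402 genes for Raptor, 5 to 9 and 601 to 2498 for Tsc2, 6 to 8 and 897 to 2519 for the difference of effects, 3 to 5 and 540 to 1164 for rapamycin, 1 to 4 and 323 to 868 for SL0101-01, and 0 to 2 and 128 to 863 between inhibitors; a group left with 1 library is assumed to vary like the others. Sign changes outside these arose in uncalled genes: Slc11a1 in Raptor KO (-0.063 with a pseudocount of 5, -0.11 after quantile normalization), Ftl1 in Raptor KO (-0.013, quantile), Ncoa4 with rapamycin (-0.021, quantile) and Slc11a2 between inhibitors (-0.059, quantile; -0.0038, common total). Leave-one-out ranges that cross 0 were, in Raptor KO, -0.68 to 0.89 for Slc11a1 and -0.051 to 0.37 for Aco1; in the difference of effects, -0.19 to 0.042 for Ireb2; with rapamycin, -0.10 to 0.70 for Slc11a2, -0.046 to 0.19 for Ncoa4, -0.72 to 0.17 for Aco1 and -0.032 to 0.30 for Ireb2; with SL0101-01, -0.15 to 0.65 for Slc11a2 and -0.25 to 0.019 for Ncoa4; and between inhibitors, -0.085 to 0.23 for Tfrc, -0.12 to 0.22 for Slc11a2, -0.10 to 0.037 for Ftl1, -0.38 to 0.23 for Hmox1 and -0.34 to 0.55 for Aco1. The cause of these moves was not tested, beyond the smaller number of libraries where some were left out. Count models planned with TMM and RLE scaling (edgeR) were not run, because the deposited values include fractions of a fragment.

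The replicate numbers were not taken to pair the samples: same-numbered libraries correlated at 0.0171 to 0.0532 in the Raptor groups, 0.00452 to 0.0853 in Hoxb8 cells and -0.0372 to 0.433 in the Tsc2 groups, where replicates 1 and 2 had the higher values. Every Raptor and Hoxb8 library and Tsc2 replicates 1 and 2 correlated best with their own number, and Tsc2 replicate 3 with another. In Hoxb8 cells, with 2 libraries a group, any positive correlation gives that match. Both Tsc2 replicate 2 libraries hold Y-linked transcripts. With a replicate block 3 members were called in Raptor KO (Slc11a2, adjusted p = 0.0221 in limma) and 8 in Tsc2 KO. The block called 8 in the difference of effects (Slc11a1, 0.0409, and Aco1, 0.0438), 5 with rapamycin, 4 with SL0101-01 and 1 between inhibitors. It called more genes over the whole table in every comparison: 706 for Raptor, 1882 for Tsc2 and 1855 for the difference of effects. The counts were 1857 for rapamycin, 1828 for SL0101-01 and 1691 between inhibitors.

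Depth limits Slc40a1 in Hoxb8 cells and Slc11a1 and Hmox1 in GMPs, which rest on few fragments.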
